A study of Mus musculus with 6 samples.

Results

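Erg, Fli1, Ets1, Elk3, Tal1, Klf2, Klf4, Gata2, Sox17 and Sox18 encode 10 transcription factors of endothelial cells (EC), and DNA methylation at these 10 genes was compared between infant and young adult lung EC. The authors sequenced bisulfite-treated DNA genome-wide after tagmentation (T-WGBS), which reads the methylation of single CpGs, and deposited a list of differentially methylated regions (DMRs). A DMR was assigned to a gene when its midpoint lay in the RefSeq gene body or within 10 kb of it, which gave 67 of the 18333 listed DMRs. The infant group comprised 3 samples from mice aged 8 to 10 days and the young adult group 3 samples from mice aged 8 to 12 weeks, all C57BL/6N and, by the methods of the study, female. No transgene or agent was used, and both groups were sorted in the same way as viable lung cells that were CD31+ and CD34+ and negative for PTPRC, LYVE1, LY76 and PDPN. The list gives 1 mean methylation level per group and DMR, so the values of single samples and the depth behind a DMR are unknown, and no difference could be set against the spread between mice. Because the authors selected the DMRs by a test on these samples, the differences below are those of selected regions and are given as a description, young adult minus infant, in percentage points.

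In vertebrate DNA, methylation sits mostly on CpGs, and active enhancers are usually depleted of it, so that a falling level inside an intron often marks a regulatory element in use, whereas a rising level often marks an element that is no longer used. The ETS factors ERG, FLI1, ETS1 and ELK3 bind a GGAA core that is found in most endothelial enhancers, the basic helix-loop-helix factor TAL1 and the zinc finger factor GATA2 act together at E-box and GATA motifs, KLF2 and KLF4 are zinc finger factors induced by laminar flow, and SOX17 and SOX18 belong to the SOXF group that takes part in arterial and lymphatic specification. TAL1 is thus a member of none of the other families. RNA was not analysed here, so none of the values below says whether a gene was expressed.

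The DMRs differed in length and CpG number, and the sequences below show the DMR with the largest difference per gene and direction where it is at most 300 bp long and not in an untranslated region, together with the Gata2 promoter DMR. All are given 5′ to 3′ on the plus strand of mm10 (GRCm38), with every CpG of the reference in capitals. Not every one of these CpGs need have been covered and have entered the group means.
Erg loss, intron, chr16:95365143-95365253: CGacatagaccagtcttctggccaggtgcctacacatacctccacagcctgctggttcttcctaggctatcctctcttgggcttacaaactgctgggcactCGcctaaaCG
Erg gain, intron, chr16:95500777-95501009: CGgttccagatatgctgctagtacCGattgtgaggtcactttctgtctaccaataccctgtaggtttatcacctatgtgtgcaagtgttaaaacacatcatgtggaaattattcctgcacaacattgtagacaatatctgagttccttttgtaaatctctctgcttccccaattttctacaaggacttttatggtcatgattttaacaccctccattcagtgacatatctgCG
Ets1 loss, intron, chr9:32743976-32744035: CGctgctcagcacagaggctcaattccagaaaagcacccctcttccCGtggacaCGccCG
Elk3 loss, intron, chr10:93271906-93272136: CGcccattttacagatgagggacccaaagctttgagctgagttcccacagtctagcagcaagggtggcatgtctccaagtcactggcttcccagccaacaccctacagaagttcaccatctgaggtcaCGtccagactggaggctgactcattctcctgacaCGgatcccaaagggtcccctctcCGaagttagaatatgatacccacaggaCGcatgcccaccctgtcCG
Fli1 gain, upstream, chr9:32550656-32550686: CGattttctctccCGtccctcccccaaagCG
Fli1 loss, intron, chr9:32436591-32436675: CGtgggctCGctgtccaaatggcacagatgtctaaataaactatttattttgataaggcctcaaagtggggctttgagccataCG
Gata2 loss, promoter, chr6:88193411-88193525: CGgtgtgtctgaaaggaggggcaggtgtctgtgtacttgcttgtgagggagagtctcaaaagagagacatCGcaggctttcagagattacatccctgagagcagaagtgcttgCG
Klf2 loss, downstream, chr8:72324141-72324321: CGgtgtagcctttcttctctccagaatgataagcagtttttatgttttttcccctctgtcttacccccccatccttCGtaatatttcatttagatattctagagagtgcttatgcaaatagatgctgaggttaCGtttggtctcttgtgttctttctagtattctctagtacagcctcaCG
Klf4 loss, coding exon, chr4:55528161-55528272: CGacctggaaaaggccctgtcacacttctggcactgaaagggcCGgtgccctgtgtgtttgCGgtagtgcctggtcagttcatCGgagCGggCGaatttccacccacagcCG
Sox17 gain, downstream, chr1:4490612-4490787: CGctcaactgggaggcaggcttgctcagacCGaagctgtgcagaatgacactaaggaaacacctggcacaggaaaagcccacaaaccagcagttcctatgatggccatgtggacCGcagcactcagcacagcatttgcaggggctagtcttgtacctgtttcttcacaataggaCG

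The largest Gata2 loss (514 bp) and the largest Sox17 gain (469 bp) were longer than 300 bp and are described by their values only. For Sox17 the shown DMR is therefore the other of its 2 gains. At the printed sites the CpG number ranged from 3 in the Erg, Fli1 and Gata2 DMRs to 7 in the Klf4 coding exon, so that each group mean rests on few CpGs.

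At 8 of the 10 genes at least 1 DMR was found, against 26.5% of the 26182 curated RefSeq genes and 27.8% of those that code for protein. Losses of methylation were found at 7 genes (Erg, Fli1, Ets1, Elk3, Gata2, Klf2 and Klf4), against 11.9% of all genes, and gains at 3 genes (Erg, Fli1 and Sox17), against 18.3%. Erg and Fli1 held 16 DMRs each, Ets1 14 and Gata2 13, so that 4 of the 10 genes had more than 5 DMRs, as was the case at 2.33% of all genes and 2.63% of the protein-coding ones. Tal1 and Sox18 held none. Long genes offer more room for DMRs, and Erg spans 227.4 kb. Per length, the 776.6 kb around the 10 genes held 8.63 DMRs per 100 kb, compared with 1.06 per 100 kb over the merged windows of all genes. Per CpG, 303 of 10595 CpGs around the 10 genes (2.86%) lay in a DMR, compared with 0.313% of the CpGs of the genome.

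Loss of methylation prevailed. Of the 67 DMRs, 49 (73.1%) lost and 18 gained methylation towards young adulthood, whereas 45.9% of all listed DMRs were losses and 54.1% gains. This share rested on a split between the genes rather than on mixed signals within them, as 15 of the 18 gains lay at Fli1 and the 9 other genes together had 48 losses and 3 gains. Introns held 46 of the 67 DMRs (68.7%), against 58.1% of all listed DMRs, and exons held 7 (10.4%), against 6.75%. Another 11 DMRs were intergenic, 2 lay at a transcript end and 1, at Gata2, in a promoter. None lay in the body of another gene. The rule selects DMRs in or near gene bodies, whereas the full list includes distal intergenic DMRs, so higher intron and exon shares follow partly from the rule. With each DMR given to the nearest start site, the intron share was 53.3%, below the 58.1% of all listed DMRs.

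The 49 losses had a median difference of -31.4 points (quartiles -35.9 and -26.2), close to the median of -32.5 points over all 8422 listed losses. They differed more in level than in size. The median level went from 48.0% to 15.9% with age, compared with 61.5% and 25.4% over all losses, and 32 of the 49 (65.3%) ended below 20% methylation, compared with 38.1% of all losses. The 18 gains had a median difference of 25.4 points, with a range of 14.9 to 34.6, compared with 20.4 points over all 9911 listed gains. They too began low: the infant level was below 50% in 15 of 18 (83.3%), compared with 44.1% of all gains, and the median level went from 25.3% to 52.5%. Only 2 of the 18 gains (11.1%) exceeded 80% in young adult EC, compared with 46.3% of all gains.

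**Figure D1:**
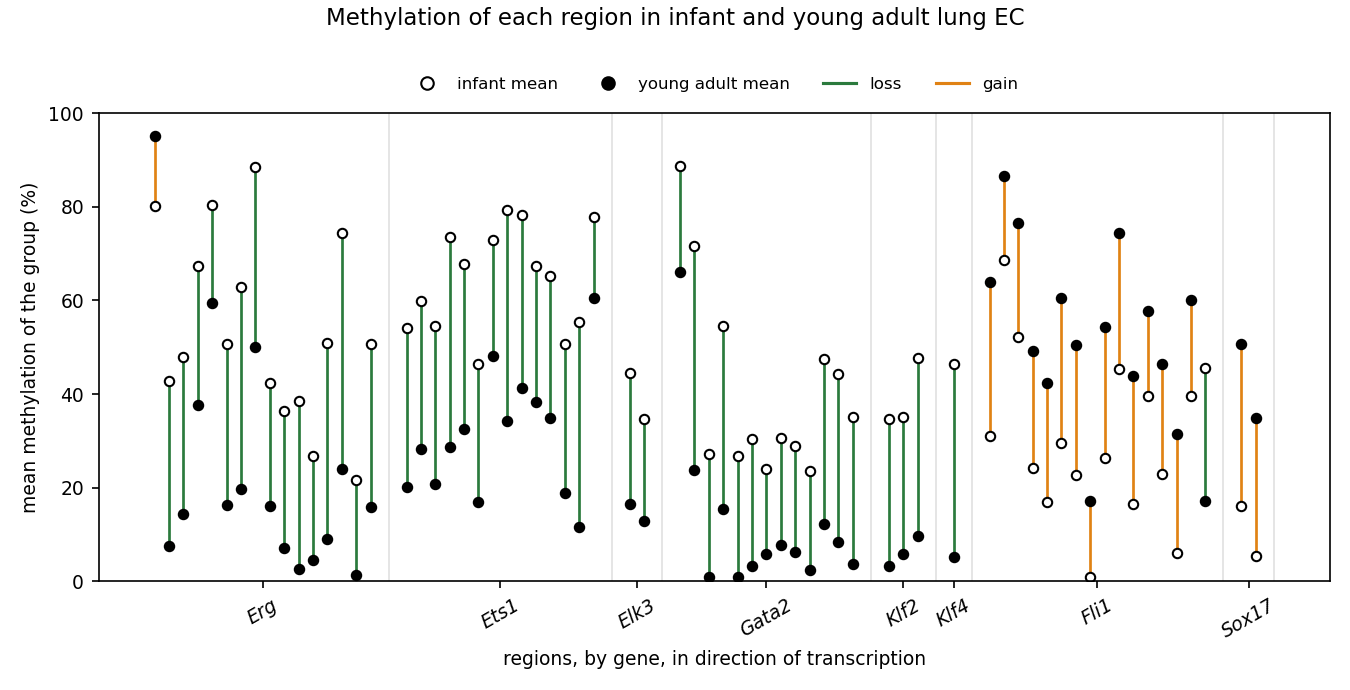
Mean methylation (%) of each of the 67 DMRs in infant (open circles) and young adult EC (filled circles), ordered by gene and, within a gene, in the direction of transcription; green lines join losses and orange lines gains, and no error can be drawn because only group means are listed. The Klf2 and Klf4 losses and 11 of the 13 Gata2 losses end below 20%, Ets1 losses end between 11.7% and 60.5%, and 15 of 16 Fli1 DMRs move upwards.

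Erg (chr16:95359169-95586593, minus strand), the ETS factor that maintains endothelial junctions and identity, has 3 annotated start sites, at 0, 56.2 and 127.2 kb along the gene. Its 15 losses were all found between 140.6 and 225.9 kb from the most upstream start, and thus downstream of the innermost start site. The nearest loss lay 13.4 kb beyond that site. In the longest transcript, 4 losses fell in intron 3, 2 in intron 4, 1 in intron 5, 5 in intron 7, 2 in intron 10 and 1 in the 3′ untranslated part of exon 11. Intron 7 was the densest stretch, with 5 losses in 9.05 kb. The largest difference was in intron 10, where the group mean went from 74.4% to 23.9% (-50.5 points), a size matched or exceeded by 3.24% of all listed losses. The second DMR of intron 10 was already low in infant EC, at 21.5%, and was almost unmethylated in young adult EC, at 1.42%. The median Erg loss went from 50.6% to 15.9%. The only gain, in intron 3 at 85.7 kb, lay upstream of the innermost start site and moved in the opposite way, from 80.2% to 95.1%. It was the smallest difference among the 67 DMRs. For 9 of the 16 Erg DMRs, all losses, the authors list Kcnj15, the next gene downstream, as the nearest promoter. By that listing alone, these 9 would not be counted at Erg. With each DMR given to the nearest start site of the curated transcripts used here, Erg also had 16 DMRs.

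Fli1 (chr9:32422204-32541452, minus strand), the closest relative of Erg, showed the reverse direction. Among the 610 genes with more than 5 DMRs, 16.9% had at least 90% gains, and Fli1 was 1 of them with 15 gains and 1 loss. Erg, with 15 losses and 1 gain, belonged to the 47.5% with at least 90% losses. The Fli1 gains lay around the start of the gene, 5 of them 2.54 to 9.22 kb upstream of the single annotated start site and 10 in intron 1, up to 40.4 kb into the gene. Intron 1 is 64.4 kb long. Within the 15 gains the infant median was 26.2% and the young adult median 54.4%, and 13 of them were below 50% in infant EC. The largest gain was the most upstream DMR, from 31.0% to 63.9% (32.9 points). The lowest infant level of the 67 DMRs, 0.94%, was that of an intron 1 DMR at 15.6 kb, which reached 17.2%. Another at 37.5 kb went from 5.99% to 31.4%. The sole Fli1 loss was set apart in intron 5 at 104.8 kb and went from 45.5% to 17.1%. No DMR was listed over the 64.5 kb between it and the last gain.

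Ets1 (chr9:32636241-32757820, plus strand), an ETS factor linked to angiogenic activation, lies next to Fli1 in the opposite orientation. Its 14 DMRs were all losses, as was the case at 40.5% of the genes with more than 5 DMRs. All 14 lay downstream of the second of its 2 start sites, which is 59.8 kb into the gene, and the first loss was found 27.1 kb beyond that site. Introns 3, 5, 7 and 8 held 2, 1, 4 and 5 losses, and 2 more lay 6.63 and 6.87 kb past the gene end. Ets1 losses began higher and ended higher than those of Erg, with medians of 66.3% and 30.7% at the younger and older age. The largest was in intron 8, from 79.4% to 34.3% (-45.1 points), and the next in intron 7, from 73.6% to 28.8% (-44.9 points). The longest of the 67 DMRs, 1039 bp with 17 CpGs in intron 5, went from 54.5% to 20.8%. Of the 2 DMRs past the gene end, 0.24 kb apart by midpoint, the first went from 55.4% to 11.7% and the other from 77.7% to 60.5%, the smallest loss of the 67 DMRs. Between the start sites of Fli1 and Ets1, which are 94.8 kb apart, the list held 9 DMRs, all of them gains (18.0 to 34.0 points). From the Fli1 loss to the last Ets1 loss, over 328.2 kb, the order along the chromosome was thus 1 loss, then 19 gains, then a stretch of 149.7 kb without a DMR, then 14 losses.

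**Figure D2:**
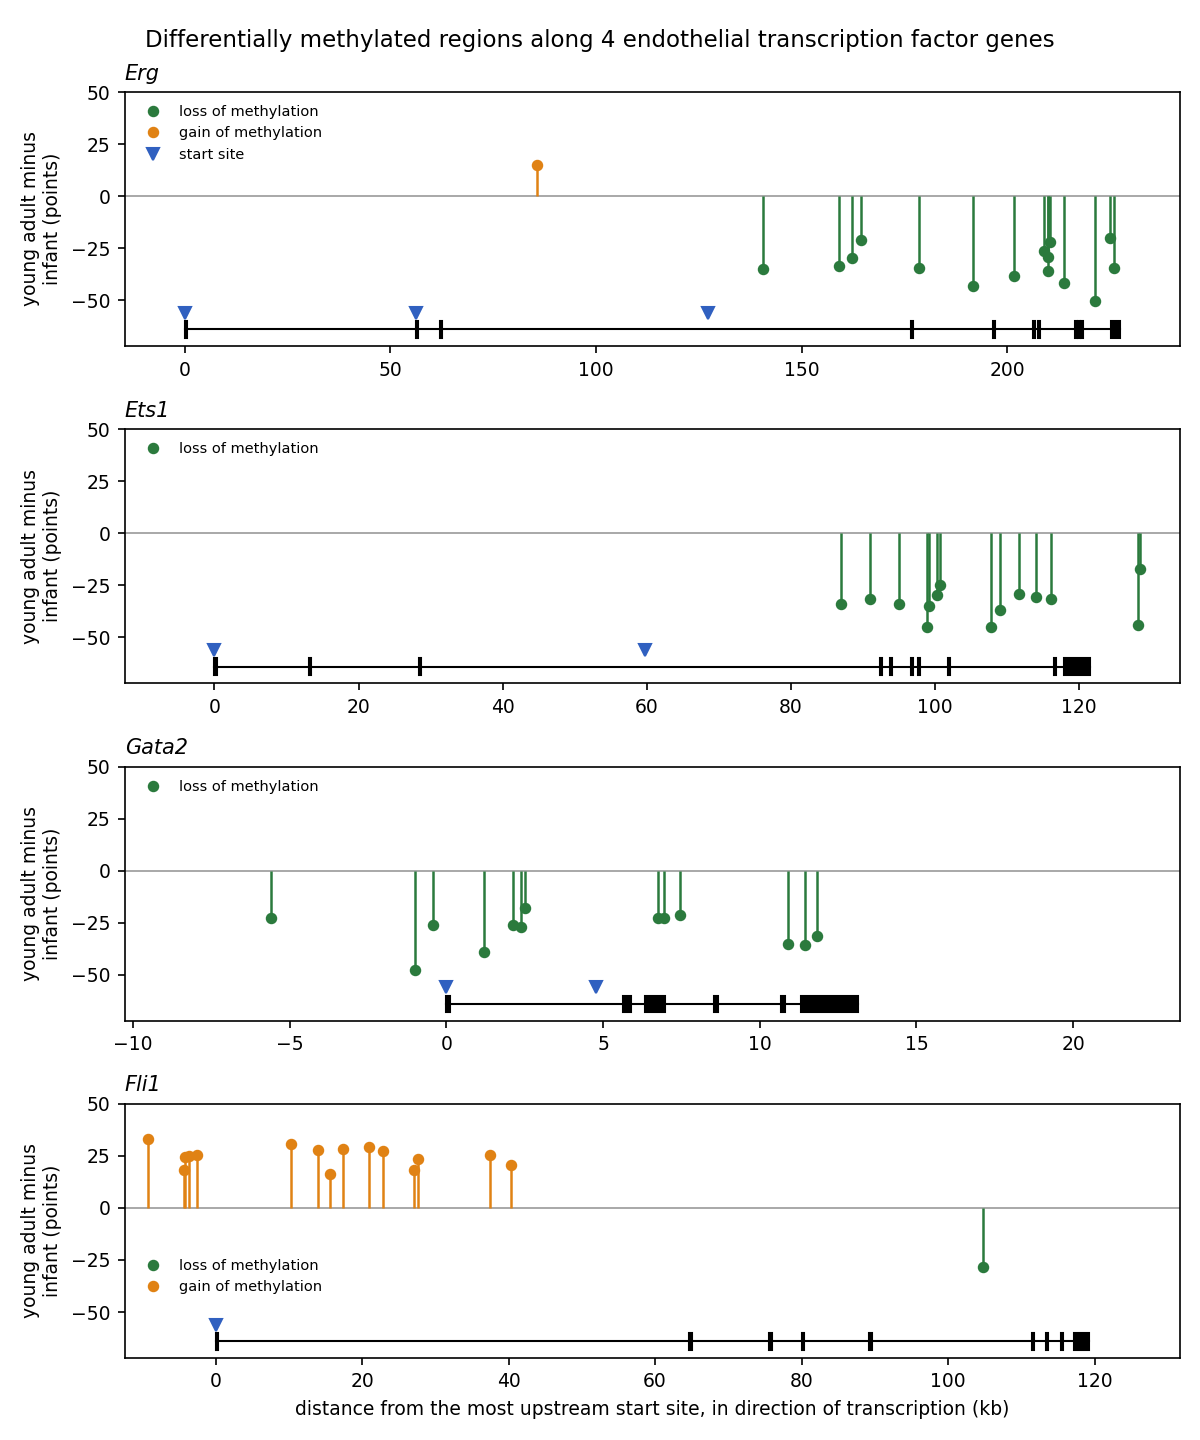
DMRs along Erg, Ets1, Gata2 and Fli1, with the distance from the most upstream start site in kb on the x axis and the young adult minus infant difference in points on the y axis; the black line and boxes are the introns and exons of the longest transcript and blue triangles the annotated start sites. Erg and Ets1 losses lie downstream of the innermost start site, Gata2 losses lie from -5.61 to 11.8 kb, and Fli1 gains lie from -9.22 to 40.4 kb.

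Elk3 (chr10:93247416-93311159, minus strand) encodes an ETS factor that can act as a repressor. It held 2 losses, both in intron 2, which went from 44.5% to 16.5% and from 34.7% to 12.8%. As many DMRs or more were found at 11.7% of all genes. A further 5 losses and no gain lay 10 to 50 kb outside Elk3, the nearest 12.9 kb past the gene end, from 72.4% to 35.8%. These lay in introns of neighbouring transcripts and were not counted.

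The other 23 genes of the ETS family carried fewer DMRs. In all, 7 held a DMR (30.4%, near the 26.5% of all genes), 5 a loss and 5 a gain (21.7% each, against 11.9% and 18.3%), and the DMRs were 13 losses and 9 gains. More than 5 were found at 1 gene (4.35%, against 2.33%). This was Etv6, a repressor of the family, with 2 losses and 4 gains, followed by Elf1 with 5 losses and by Elf2 and Ets2 with 2 losses and 1 gain each. Among 26 endothelial genes known to be bound by ETS or SOX factors, 20 held a DMR (76.9%, against 26.5% of all genes) and 7 more than 5 (26.9%, against 2.33%). Their DMRs were 93 losses (77.5%, against 45.9% of all listed DMRs) and 27 gains. The junction genes Pecam1 and Cdh5 had 17 and 15 losses and no gain. Flt1 had 13 losses and 2 gains, Efnb2 14 losses, Eng 10 losses and 1 gain, Notch1 7 losses and 1 gain, and Dll4, a NOTCH ligand, 5 losses and 6 gains. These genes were put on the list because the ETS factors are known to regulate them, and earlier results of these data were known at that time, so the counts are a description.

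Tal1 (chr4:115056426-115071755, plus strand), the basic helix-loop-helix partner of GATA2, held no DMR in its 15.3 kb body or within 10 kb. The nearest lay 93.6 kb upstream, nearest to the promoter of Cmpk1, and was a gain from 75.2% to 92.6%. The window of Tal1 holds 561 CpGs, and from the list a CpG that did not differ cannot be told apart from a CpG that was not covered. Of 14 genes encoding partners or close relatives (Lyl1 and Tal2) of TAL1, 10 held a DMR (71.4%, against 26.5% of all genes). By gene, 5 held a loss (35.7%, against 11.9% of all genes) and 8 a gain (57.1%, against 18.3%). The DMRs of these 14 genes were 19 losses (55.9%, against 45.9% of all listed DMRs) and 15 gains. Cbfa2t3, a corepressor, had 8 losses and 3 gains, Tcf4, an E protein, 8 losses and 2 gains, and Zfpm1, which encodes the GATA cofactor FOG1, 4 gains.

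Gata2 (chr6:88193891-88207032, plus strand) had the densest cover of the 10 genes. Its 13 DMRs, all losses, amounted to 39.2 per 100 kb, and 72 of its 842 CpGs (8.55%) lay in a DMR. As many DMRs or more were found at 0.542% of all genes. The count and density depend on how runs of CpGs were split: with DMRs within 500 bp joined, 6 remained at Gata2. The losses reached from 5.61 kb upstream to 11.8 kb downstream of the first of 2 start sites, the second being at 4.77 kb. They were thus spread along the gene rather than held in 1 intron. Within the gene body the widest gaps between DMR midpoints were 4.24 and 3.47 kb, and the wider one spans the second start site. The level was low from the outset: the median went from 30.5% to 6.32%, and 11 of 13 ended below 20%. The promoter DMR, 0.42 kb upstream of the first start site, went from 27.2% to 0.95%. The largest difference, 1.01 kb upstream of that site in a DMR with 9 CpGs, was from 71.6% to 23.7% (-47.9 points). In intron 1, which separates the start sites, 4 losses were found, among them a DMR with 15 CpGs from 54.5% to 15.4% and another from 26.8% to 0.89%. The protein-coding part was included. In exon 3, 2 DMRs overlapped coding bases, 1 of them reaching into intron 3, and they went from 30.5% to 7.67% and from 28.9% to 6.32%. In exon 6, a DMR of 186 bp, all coding, went from 44.3% to 8.38%, and another in the 3′ untranslated part from 35.0% to 3.66%. The most upstream DMR, at 5.61 kb before the start, had the highest levels of the 13, 88.8% and 66.1%.

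GATA2 and TAL1 are known to bind together at an E-box followed by a GATA motif, and a well-studied element of this kind lies in a Gata2 intron. A search of both strands for CANNTG, a spacer of 7 to 9 bases and AGATAA found 1 match at Gata2, in intron 4 at 9.29 kb, shown here on the plus strand of mm10 with the E-box and the GATA motif in capitals.
Gata2 composite, chr6:88203185-88203204: CATCTGcagccggtAGATAA
No DMR overlapped this match, the nearest being 1564 bp away. Composite matches were also found in introns of Erg and Elk3, and none of these lay in a DMR. Among the other 5 GATA genes, 3 held a DMR (26.5% of all genes did), with no loss and 6 gains: Gata3 had 4, and Gata1 and Gata6 1 each. Gata3 is the family member best known from lymphocytes.

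Klf2 (chr8:72319062-72321654, plus strand), which conveys the effect of laminar flow on the endothelium, held 3 losses, none of them in the gene body of 2.59 kb. They lay 0.28, 1.78 and 2.58 kb past the gene end and went from 34.7% to 3.32%, from 35.0% to 5.74% and from 47.7% to 9.68%. All ended below 10%. Another 6 losses and no gain were found 10 to 50 kb outside the gene, 3 on either side. Those downstream lay in introns of neighbouring transcripts. The largest, from 71.1% to 22.6% at 49.2 kb upstream, has Ap1m1 as the nearest promoter in the authors' listing. Klf4 (chr4:55527137-55532475, minus strand), the close relative of Klf2 with overlapping functions in EC, held 1 DMR. This was in exon 5, all of its 112 bp coding, and its 7 CpGs went from 46.4% to 5.25% (-41.1 points). At least 1 DMR was found at 26.5% of all genes, and 3 or more at 6.79%.

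Among 13 genes upstream of KLF2 and KLF4 in flow and CCM signalling, 7 held a DMR (53.8%, against 26.5% of all genes), with 11 losses (73.3%, against 45.9% of all listed DMRs) and 4 gains. Heg1, the receptor that anchors the CCM complex, had 7 losses of -23.0 to -39.4 points. Ccm2 had 1 loss and 1 gain, and Mef2c, a factor that activates Klf2, 2 gains. Of 10 known targets, 6 held a DMR, with 9 losses (64.3%) and 5 gains. S1pr1, the receptor for sphingosine-1-phosphate, had 4 losses, and Thbd, which encodes the anticoagulant thrombomodulin, 1 loss and 3 gains. In the rest of the KLF family, 8 of 15 genes held a DMR (53.3%), with 66 losses (89.2%) and 8 gains, and 4 had more than 5 (26.7%, against 2.33% of all genes). By gene, 6 held a loss and 6 a gain (40.0% each, against 11.9% and 18.3% of all genes). The long gene Klf7 had 28 losses and no gain, Klf13 had 18 losses and 1 gain, Klf9 9 losses and 1 gain, and Klf11 7 losses. Losses were thus more numerous at these 4 KLF genes than at Klf2 and Klf4 themselves. These counts are not scaled to gene length, and Klf2 and Klf4 are short, with bodies of 2.59 and 5.34 kb.

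Sox17 (chr1:4490928-4497354, minus strand), a SOXF factor of arterial EC, held 2 gains and no loss. The larger, in the 3′ untranslated part of exon 4, went from 16.0% to 50.7% (34.6 points), a size matched or exceeded by 4.57% of all listed gains. The other lay 0.23 kb past the gene end and went from 5.50% to 34.8% (29.3 points). Both were low in infant EC, and their midpoints were 0.44 kb apart. Sox18 (chr2:181669837-181671640, minus strand), a SOXF factor of lymphatic and vascular development, held no DMR in its window. The nearest were 4 gains 22.7 to 25.4 kb upstream, at Rgs19 and Lkaaear1. Sox7, the other SOXF gene, had 2 losses. In the rest of the SOX family, 8 of 18 genes held a DMR (44.4%, against 26.5% of all genes). By gene, 2 held a loss (11.1%, against 11.9% of all genes) and 6 a gain (33.3%, against 18.3%). The share of losses, 13 of 29 DMRs (44.8%), was near the 45.9% of all listed DMRs. Among these genes, Sox13 had 11 losses, Sox9 5 gains and Sox5 4 gains.

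**Figure D3:**
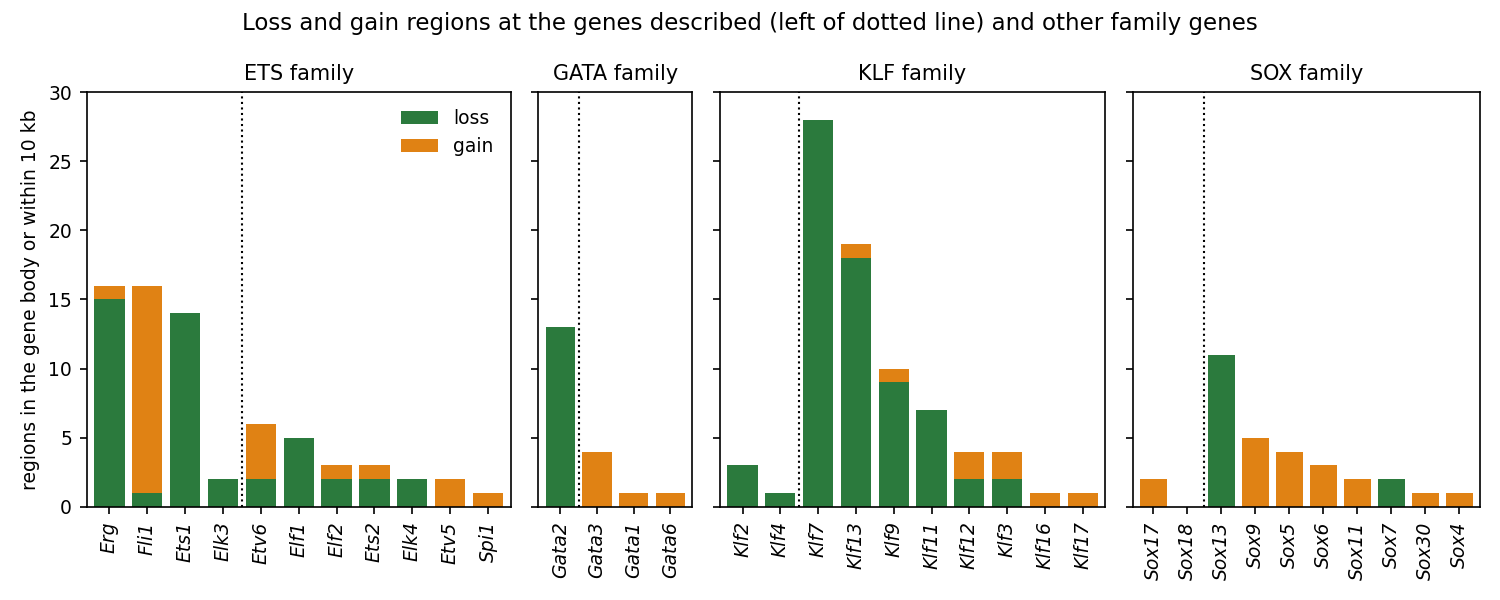
Number of loss (green) and gain (orange) DMRs per gene in the ETS, GATA, KLF and SOX families; the 9 genes left of the dotted lines are those described here (Tal1 belongs to none of these families), and of the other family genes only those with a DMR are drawn. Fli1 has 15 gains where Erg and Ets1 have 15 and 14 losses, Gata2 has 13 losses where Gata3 has 4 gains, and Klf7 has the most DMRs, 28.

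The flank of 10 kb was a fixed limit, and the DMRs near it are given for orientation. Just inside lay the most upstream Fli1 gain, at 9.22 kb. Just outside lay a gain 12.2 kb past the end of Fli1, from 72.5% to 94.2%, and the Elk3 loss at 12.9 kb. Between 10 and 50 kb outside the genes, Fli1 had 6 gains and no loss, Erg 3 gains, Gata2 1 loss, Klf4 1 loss and 1 gain, and Sox17 1 gain. DMRs out to 50 kb thus had the same direction as most of those at Fli1 and as those at Klf2, Elk3, Gata2 and Sox17. Some may belong to neighbouring genes. The authors list Kcnj1 as the nearest promoter for the gains past the end of Fli1, and Ap1m1 for the farthest losses upstream of Klf2. Erg losses did not extend past the gene end: the nearest DMR there, 18.1 kb on, was a gain from 13.5% to 47.9%.

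Windows of 200 bp around the midpoints were searched on both strands for the core motifs of these families. The GGAA core of ETS factors occurred in 43 of the 49 loss windows (87.8%) and in all 18 gain windows, compared with 90.4% and 90.3% of all listed loss and gain windows. CCGGAA, an ETS motif that holds a CpG and includes the GGAA core, occurred in 3 loss windows (6.12%, compared with 4.29%). The GATA motif AGATAA occurred in 12.2% of loss and 11.1% of gain windows, compared with 13.8% and 9.96%. The KLF motif CACCC occurred in 49.0% and 33.3%, compared with 41.1% and 36.1%, and was found in 10 of the 13 Gata2 windows. The SOX motif ACAAT occurred in 7 loss windows (14.3%, compared with 26.3%) and in 8 gain windows (44.4%, compared with 27.9%). The E-box CANNTG occurred in 63.3% of loss and 55.6% of gain windows, compared with 65.4% and 66.5%. With 49 and 18 windows such shares are coarse, and a match is a description of the sequence, not of binding.

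The cell type could be viewed only through methylation. For comparison, 11.9% of all genes held a loss and 18.3% a gain. Of 6 endothelial marker genes, 4 held a DMR, with 37 losses and no gain. Lymphatic markers showed 2 losses at 2 of 4 genes, leukocyte markers 1 gain at 1 of 5, near the share of all genes, and pericyte and smooth muscle markers 2 gains at 2 of 4. No DMR was found at 3 erythroid, 3 fibroblast or 4 epithelial markers. Whether the cell composition of the sorted samples differed between the ages was not tested.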

How the data were processed

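T-WGBS of sorted lung EC was analysed from the list of DMRs deposited by the authors. Per the methods of the study, reads were aligned to mm10 with BWA, and DMRs were called with bsseq on unsmoothed data from CpGs covered at least 8-fold in at least 2 samples of a group, requiring runs of 3 or more CpGs, each with a t-test p below 0.05, and a group difference of 10% or more. The labels name BWA 0.6.1, R 3.2.2 and bcl2fastq 1.8.4. The deposited values are the mean methylation fraction of each group, which the authors averaged over CpGs and samples. They were converted to percent here, and the depth per DMR is unknown, since the list holds neither counts nor coverage.

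In the GRCm38 reference, all 18333 DMRs started and ended on a CpG. Gene bodies came from 45756 curated RefSeq transcripts of 26182 genes. DMRs were placed by midpoint, in the order promoter (from 1 kb before to 100 bp after a start site), transcript end, exon, intron, intergenic. Sequences and motif matches were read from the same reference, and placement and motif search were tested on simulated data (Python 3.11.15, pandas 2.3.3, pysam 0.24.0). The list holds 1 mean per group, so no test was run, and counts are set beside the share of all genes or DMRs. In each gene the largest loss and gain and any promoter DMR are named, and in other lists the 3 genes with the most DMRs and those with more than 5. Other DMRs are named for their position or level. A gene that this rule names among the KLF targets is not reported here. The genes and lists were chosen with earlier results of these data known. Results were recomputed under 13 other choices of flank, assignment, DMR size and genes entering, and under 1 chosen after seeing the data.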

Additional observations from a re-analysis of the deposited data

How the results depend on the processing

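Losses remained the majority over the 10 genes combined (63.3% or more) under each of the 13 other choices of flank, assignment, DMR size and genes, and without Fli1, a choice made after seeing the data. The number of DMRs, 67, was 30 at a difference of at least 30 points and 21 with at least 5 CpGs. The share of losses, 73.1%, was 90.0% at 30 points and 94.1% without Fli1. Over all listed DMRs the median loss was -32.5 points and the upper quartile of the gains 26.1 points. A limit of 30 points thus keeps more losses than gains in the full list as well. The 45.9% of losses among all listed DMRs was taken without this limit and is no background for the 90.0%. The median loss was -35.9 points at 30 points and -34.0 with at least 5 CpGs, and the median gain 27.6 points at 20 points, 32.9 at 30 points and 29.3 without Fli1, all from settings that keep fewer DMRs. With each DMR given to the nearest start site, 7 genes instead of 4 had more than 5 DMRs (2 at 30 points, 1 with at least 5 CpGs), and Klf4 turned from 1 loss to 12 DMRs of which 41.7% were losses, so that gains prevailed there. The intron share was 86.8% in gene bodies alone and 53.3% by nearest start site. For the summaries over the 10 genes, 70 comparisons with an alternative stayed within the error set for them and 14 did not. For the counts and shares of single genes, 216 stayed within it and 30 did not. Any overlap with the window, all RefSeq transcripts, and leaving out DMRs only in another gene each gave 67 DMRs again. The comparisons under these choices were thus of the same DMRs. For shares and medians this error took the DMRs as independent, although many lie close together in the same gene. It was set without values of single samples, so it does not measure the spread between mice. It is wide where a gene holds few DMRs: the change in the Klf4 loss share by nearest start site counted as within it. No paired analysis was possible because the list holds only group means, and for the same reason no replicate could be left out. Depth limits which CpGs could be listed at all, so that the absence of DMRs at Tal1 and Sox18 is no measure of equal methylation.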
